A study of Mus musculus with 6 samples.

Results

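The T cell receptor complex and lineage genes described here are 10 genes of the mouse that encode the CD3 chains (*Cd3e*, *Cd3d*, *Cd3g*), the coreceptors (*Cd4*, *Cd8a*, *Cd8b1*), the kinase *Lck*, the costimulatory receptor *Cd28*, and the T lineage regulators *Themis* and *Tcf7*. They were chosen by symbol from the 54532 genes with deposited read counts, and all 10 were among the 16568 genes with enough counts to be tested. RNA came from lung tissue of 3 GR+/+ and 3 GRdim/dim mice, 1 library per mouse. GRdim/dim mice carry a germline point mutation in every cell that impairs dimerization of the glucocorticoid receptor (GR), and GR+/+ mice were wildtype littermates on the same mixed 129/SvEv and C57BL/6 background. All 6 mice, aged 10 to 16 weeks, were anesthetized and ventilated and were bled into hemorrhagic shock (HS), with the mean arterial pressure held at 35 mmHg for 1 h, before 4 h of resuscitation with retransfused blood, fluid and norepinephrine. Lungs of mice without HS were not sequenced, so the genotypes were compared after HS only, and the mutation, which the whole animal carries, was not limited to T cells or to the lung.

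T cells recognise antigen through a receptor whose antigen-binding chains have no signalling tail of their own. The CD3 chains and the zeta chain carry the tyrosine motifs that *Lck* phosphorylates once CD4 or CD8 has brought the kinase to the receptor, and ZAP-70 and the adaptor LAT pass the signal on. CD28 adds the second signal that a naive T cell needs, THEMIS tunes receptor signalling and is best known from the selection of thymocytes, and TCF-1, the product of *Tcf7*, is a transcription factor that establishes the T lineage and marks naive and memory T cells. In the lung, T cells reside in the tissue and pass through its vessels.

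The CD3 genes lie side by side on chromosome 9, and the bases before their start sites are shown because these 3 genes include the members with the largest genotype differences. In GRCm38, *Cd3g* (ENSMUSG00000002033, chr9:44969572-44980431, minus strand), *Cd3d* (ENSMUSG00000032094, chr9:44981786-44987339, plus strand) and *Cd3e* (ENSMUSG00000032093, chr9:44998740-45009627, minus strand) together span 40056 bases. *Cd3g* and *Cd3d* start 1355 bases apart and point away from each other, and the ends of *Cd3d* and *Cd3e* face each other across 11401 bases. The 250 bases before each RefSeq start (GRCm38.p6) are written 5′ to 3′ on the strand of the gene. Capitals mark hexamers of factors known from T cell genes, searched on both strands: CTTTGA (TCF/LEF, the family of TCF-1, read as TCAAAG on the other strand), GGAAGT (ETS, read as ACTTCC on the other strand) and CACCTG (E-box). The windows are chr9:45009612-45009861 for *Cd3e*, chr9:44981536-44981785 for *Cd3d* and chr9:44980432-44980681 for *Cd3g*. The RefSeq start of *Cd3e* lies inside the gene coordinates given above, so its window reaches past 45009627 into the gene. The ETS match of *Cd3e* lies across that position.
Cd3e: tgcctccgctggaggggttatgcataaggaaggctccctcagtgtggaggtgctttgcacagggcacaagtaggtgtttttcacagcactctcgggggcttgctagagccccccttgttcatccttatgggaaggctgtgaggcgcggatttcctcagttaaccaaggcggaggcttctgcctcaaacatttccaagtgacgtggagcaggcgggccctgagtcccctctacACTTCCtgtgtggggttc
Cd3d: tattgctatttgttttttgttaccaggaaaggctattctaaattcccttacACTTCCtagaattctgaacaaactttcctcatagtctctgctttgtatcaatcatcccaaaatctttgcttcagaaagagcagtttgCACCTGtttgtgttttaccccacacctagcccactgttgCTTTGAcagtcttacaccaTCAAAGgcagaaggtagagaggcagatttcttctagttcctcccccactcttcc
Cd3g: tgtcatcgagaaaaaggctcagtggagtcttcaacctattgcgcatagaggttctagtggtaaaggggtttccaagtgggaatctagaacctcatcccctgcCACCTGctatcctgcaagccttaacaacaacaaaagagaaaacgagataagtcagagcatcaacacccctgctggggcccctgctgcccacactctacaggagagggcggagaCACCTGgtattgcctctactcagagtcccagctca
The window of *Cd3d* held TCF/LEF, E-box and ETS matches, that of *Cd3e* a single ETS match, and that of *Cd3g* E-box matches alone among the motifs searched. RefSeq windows were found for 7 of the 10 members, and *Cd4*, *Cd8b1* and *Cd28* had none. Of these 7, *Lck*, *Themis* and *Tcf7* had 2 windows each, so a member could match in either, and shares of single windows are not on the same footing. TCF/LEF was present in 1 of these 7 members and in 13.8% of all 32851 windows, ETS in 4 members (*Cd3e*, *Cd3d*, *Lck* and *Tcf7*) and 19.7% of windows, and E-box in 3 members (*Cd3d*, *Cd3g* and *Lck*) and 17.2%. The RUNX hexamer TGTGGT was found in 1 member (*Lck*) against 14% of windows, and the glucocorticoid receptor hexamer AGAACA in 2 members (*Cd8a* and *Themis*) against 16.1%. A match describes letters in the window and was not tested as a binding site.

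The libraries held 15687734 to 32082940 counts, and the 10 members together made up 0.00514% to 0.0106% of the counts in GR+/+ lungs and 0.00837% to 0.0113% in GRdim/dim lungs. The lowest count of any member in a library was 13. Transcripts of the lung epithelium were abundant in every library, with *Scgb1a1*, the club cell secretory protein, and *Sftpc*, the surfactant protein of alveolar type II cells, the most abundant of the lung markers. In each genotype the replicates differed from each other by more than sampling noise. Female mice were 2 of the 3 GR+/+ and 1 of the 3 GRdim/dim mice, and expression of *Xist* and of Y-linked genes gave the same numbers, so sex and genotype were partly confounded.

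None of the 10 members passed the thresholds for a differentially expressed gene (edgeR adjusted p under 0.05 and log2 fold change beyond 0.5), which 28 of 16568 genes passed, 0.169% of those tested. All 10 had a higher estimate in GRdim/dim than in GR+/+ lungs, where 50.9% of all tested genes had one above 0, and their median log2 fold change was 0.75, where the median of all tested genes was 0.01 and the middle 50% of genes lay between -0.21 and 0.21. With unadjusted p under 0.05 in the same edgeR test, 3 members were higher (*Cd3e*, *Cd3d* and *Lck*), against 4.91% of all genes, and 0 were lower, against 4.68%. In 2 members, *Cd3e* and *Cd3d*, every GRdim/dim library lay above every GR+/+ library, as in 7.77% of all genes. The members share cells and libraries and are not independent of each other. In RNA from whole tissue, more T cells and more RNA of these genes per T cell cannot be told apart.

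DESeq2 also called 0 of the 10 members, while it called 272 of the 15917 genes to which it gave an adjusted p, or 1.71%. Unadjusted p in DESeq2 was under 0.05 for 5 members, *Cd3e*, *Cd3d*, *Cd3g*, *Lck* and *Cd28*, all of them higher in GRdim/dim lungs, against 5.21% of all genes. The call for *Cd3e* depended on the filter on low counts: with no filter its log2 fold change was 1.28 at an edgeR adjusted p of 0.0230, while over the other alternatives, leaving out single libraries included, its adjusted p was 0.0762 (DESeq2) to 0.652 (edgeR). The fit with no filter called 522 of 31368 tested genes.

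**Figure D1:**
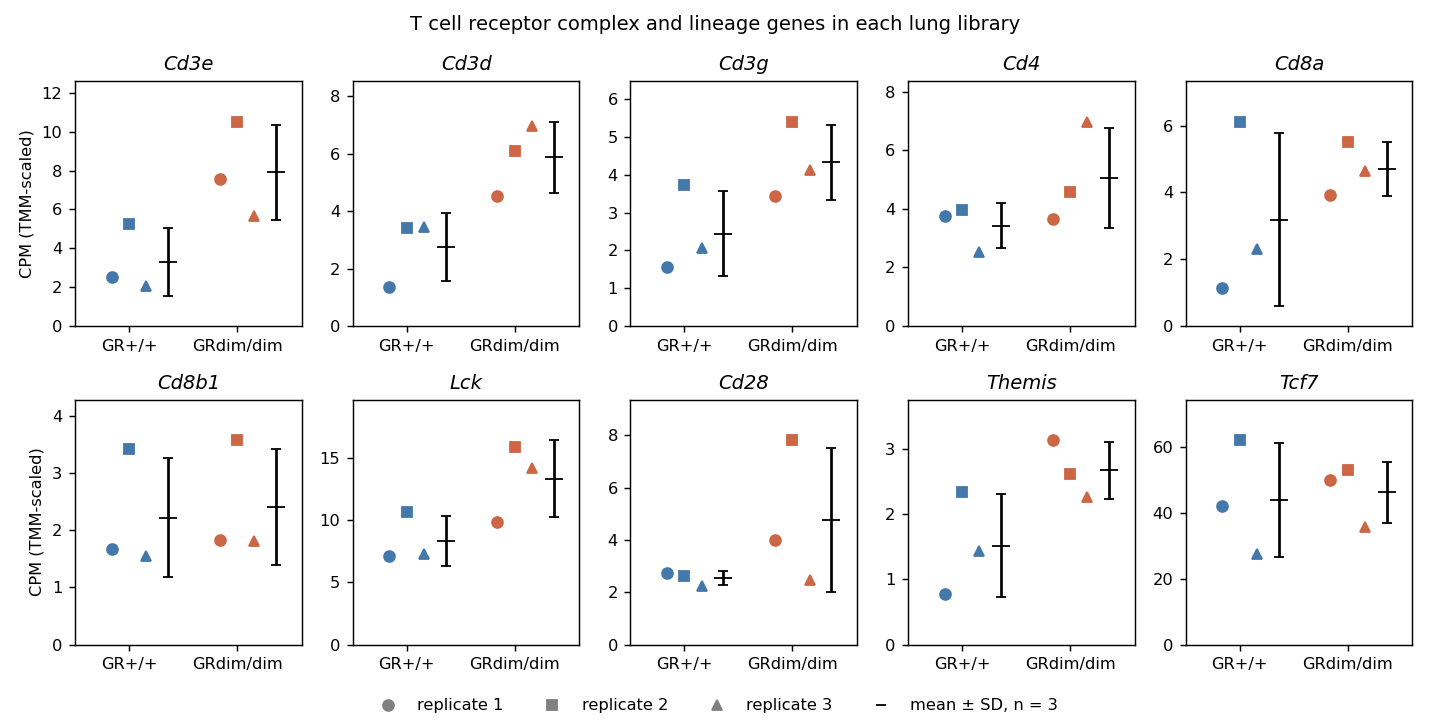
Level of each of the 10 genes (CPM, vertical axes from 0) in each lung library, GR+/+ in blue and GRdim/dim in red, with the mean ± SD of 3 mice beside the points and the replicate number as marker shape. The groups do not overlap for *Cd3e* and *Cd3d*, while GR+/+ replicate 2 lies above at least 1 GRdim/dim library for each of the other 8 genes.

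*Cd3e* encodes CD3 epsilon, which pairs with both other CD3 chains and without which the receptor does not reach the cell surface. Its level was 2.51, 5.28 and 2.06 CPM (counts per 1000000 counts, scaled by the library factors of edgeR) in the GR+/+ libraries and 7.55, 10.5 and 5.68 CPM in the GRdim/dim libraries. The highest GR+/+ lung, replicate 2, was just below the lowest GRdim/dim lung, replicate 3. GR+/+ lungs averaged 3.28 ± 1.74 CPM and GRdim/dim lungs 7.91 ± 2.43 CPM (SD, n = 3 mice each). The edgeR log2 fold change was 1.29 (SE 0.40, 95% interval 0.39 to 2.18), with an adjusted p of 0.342 (0.00923 before adjustment). The exact permutation test over the 6 libraries gave p = 0.1, the smallest value that 3 against 3 libraries allow (two-sided). An antisense gene, *Gm48719*, overlaps 135 exonic bases of *Cd3e*, and since use of strand is not given in the sources used here, reads there cannot be told apart. That gene had 0 to 7 counts per library, against 42 to 253 for *Cd3e*. Small overlaps of *Lck* with *Mir8119* and of *Themis* with *4930519F09Rik* involved genes with at most 1 count in a library.

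*Cd3d* encodes CD3 delta, which joins the complex as a partner of epsilon. The GR+/+ libraries had 1.37, 3.42 and 3.46 CPM and the GRdim/dim libraries 4.53, 6.11 and 6.97 CPM. All 3 GRdim/dim lungs were above all 3 GR+/+ lungs, and GR+/+ replicate 1 was lowest. Its log2 fold change in edgeR was 1.08 (SE 0.39, 95% interval 0.22 to 1.94), at p = 0.0186 before adjustment, 0.417 after it, and 0.1 in the exact permutation test.

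*Cd3g* encodes CD3 gamma, the other partner of epsilon. It was measured at 1.55, 3.72 and 2.06 CPM in GR+/+ and at 3.45, 5.40 and 4.13 CPM in GRdim/dim lungs. GR+/+ replicate 2 was above GRdim/dim replicate 1, so the groups overlapped. The log2 fold change of 0.83 (SE 0.39) had a 95% interval of -0.03 to 1.70, an adjusted p of 0.543 in edgeR and an exact permutation p of 0.2. Without GR+/+ replicate 2 it was 1.25.

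The coreceptors CD4 and CD8 bind the MHC molecule that presents the peptide, CD4 on helper and regulatory T cells and CD8 on cytotoxic T cells. *Cd4* (ENSMUSG00000023274, chr6:124864692-124888221, minus strand) was at 3.76, 3.96 and 2.54 CPM in GR+/+ and 3.67, 4.57 and 6.97 CPM in GRdim/dim lungs. GRdim/dim replicate 1 lay between GR+/+ libraries, and GRdim/dim replicate 3 was the highest. *Cd4* had a log2 fold change of 0.57 (SE 0.35, 95% interval -0.20 to 1.34), with an adjusted p of 0.668 in edgeR and an exact permutation p of 0.3. Without GRdim/dim replicate 3 it was 0.28. CD4 is also found on some myeloid cells, so this transcript is less particular to T cells than those of the CD3 chains.

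*Cd8a* (ENSMUSG00000053977, chr6:71373427-71379173) and *Cd8b1* (ENSMUSG00000053044, chr6:71322788-71337494) encode the alpha and beta chains of CD8 and lie on the plus strand, 35933 bases apart. *Cd8a* was at 1.14, 6.12 and 2.32 CPM in GR+/+ and at 3.94, 5.52 and 4.65 CPM in GRdim/dim lungs. The highest and the lowest library were both GR+/+, and the GRdim/dim lungs lay between them. With this spread the log2 fold change of *Cd8a*, 0.57, had the largest error of the 10 members (SE 0.51, 95% interval -0.57 to 1.71, edgeR adjusted p of 0.802, exact permutation p of 0.4). Leaving out GR+/+ replicate 2 moved it to 1.42, leaving out GR+/+ replicate 1 to 0.18 and leaving out GR+/+ replicate 3 to 0.38, and a covariate for sex-linked expression gave 1.09.

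*Cd8b1* was at 1.67, 3.42 and 1.56 CPM in GR+/+ and at 1.83, 3.57 and 1.81 CPM in GRdim/dim lungs. Replicate 2 of each genotype was high and the other 4 libraries were close to each other. Its log2 fold change was 0.14 (SE 0.45, 95% interval -0.85 to 1.13), with an edgeR adjusted p of 0.962 and an exact permutation p of 0.5, and it fell below 0 when some single libraries were left out. Of the sequence windows of 31 bases in its transcripts, 8.40% also occurred in another gene, the highest share of the members, so its counts are uncertain to the extent that reads from those windows were assigned to the other genes or dropped. That share was 3.10% for *Cd3d*, 2.72% for *Cd3e* and 0 for *Lck*, *Cd28* and *Tcf7*.

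The ratio of *Cd4* to *Cd8a* counts, a coarse measure of the balance between both coreceptors, was 3.26, 0.649 and 1.10 in GR+/+ and 0.932, 0.828 and 1.5 in GRdim/dim lungs. The GRdim/dim ratios lay within the range of the GR+/+ ratios. The difference in log2 ratio was -0.33, with an exact permutation p of 0.8 (0.8 after Benjamini-Hochberg adjustment over 5 ratios). For *Cd8a* to *Cd8b1* the log2 ratio was 0.74 higher in GRdim/dim lungs, with overlapping groups and an exact permutation p of 0.2 (adjusted 0.333).

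*Lck* (ENSMUSG00000000409, chr4:129548344-129573641, minus strand) encodes the Src family kinase that starts receptor signalling. It was at 7.11, 10.7 and 7.24 CPM in GR+/+ and at 9.87, 15.9 and 14.2 CPM in GRdim/dim lungs. Overlap came from GR+/+ replicate 2, which was above GRdim/dim replicate 1. GR+/+ lungs averaged 8.34 ± 2.02 CPM and GRdim/dim lungs 13.3 ± 3.10 CPM (SD, n = 3 mice each). In edgeR the log2 fold change was 0.68 (SE 0.28, 95% interval 0.06 to 1.29), at p = 0.0337 before adjustment, 0.473 after it, and 0.2 in the exact permutation test.

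*Cd28* (ENSMUSG00000026012, chr1:60716800-60773359, plus strand) was nearly equal among the GR+/+ lungs, at 2.75, 2.64 and 2.26 CPM, and spread widely among the GRdim/dim lungs, at 3.99, 7.81 and 2.45 CPM. GRdim/dim replicate 2 had the highest level and GRdim/dim replicate 3 lay within the GR+/+ range. Its log2 fold change was 0.91 (SE 0.42, 95% interval -0.02 to 1.85), with an edgeR adjusted p of 0.537 and an exact permutation p of 0.3. Without GRdim/dim replicate 2 it was 0.35.

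*Themis* (ENSMUSG00000049109, chr10:28668360-28883818, plus strand) had the lowest count of any member in a library and the lowest mean level, with 13 to 63 counts per library. Its level was 0.777, 2.34 and 1.43 CPM in GR+/+ and 3.13, 2.62 and 2.26 CPM in GRdim/dim lungs. GR+/+ replicate 2 was just above GRdim/dim replicate 3, and the other libraries separated by genotype. For *Themis* the log2 fold change was 0.82 (SE 0.44, 95% interval -0.15 to 1.79), with an edgeR adjusted p of 0.602 and an exact permutation p of 0.2. It was 0.52 without GR+/+ replicate 1 and 1.25 without GR+/+ replicate 2.

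*Tcf7* (ENSMUSG00000000782, chr11:52252371-52283014, minus strand) was the most abundant member, at 42.1, 62.1 and 27.4 CPM in GR+/+ and 50.1, 53.0 and 35.6 CPM in GRdim/dim lungs. The highest and the lowest library were both GR+/+. *Tcf7* had a log2 fold change of 0.08 (SE 0.28, 95% interval -0.54 to 0.71), with an edgeR adjusted p of 0.966 and an exact permutation p of 1, and it fell below 0 without GR+/+ replicate 3 or GRdim/dim replicate 2. *Tcf7* contributed the largest share of the members' counts, and which cells its counts came from was not measured. The summed level of all 10 genes overlapped between genotypes, at 52.3 to 103.6 CPM in GR+/+ and 84.8 to 115 CPM in GRdim/dim lungs. Summed without *Tcf7*, the 9 others gave 22.6 to 41.5 CPM and 41.9 to 62.0 CPM, so that the highest GR+/+ and the lowest GRdim/dim sum were nearly equal. This second sum leaves out the member with the smallest log2 fold change and is a description.

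**Figure D2:**
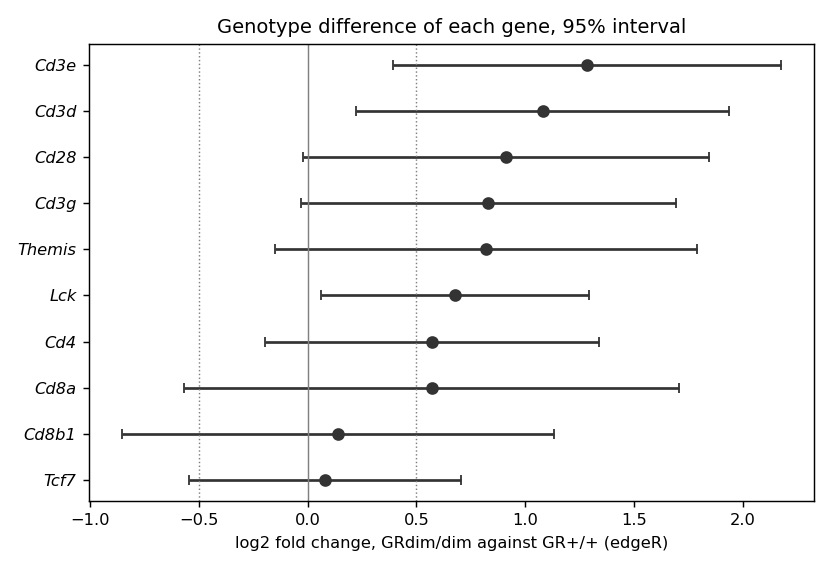
Log2 fold change of each gene, GRdim/dim against GR+/+ lungs (points, edgeR), with its 95% interval (bars), ordered by size, with a solid line at 0 and dotted lines at -0.5 and 0.5. The intervals of *Cd3e*, *Cd3d* and *Lck* lie above 0, and those of *Cd8b1* and *Tcf7* are centred near 0.

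Ratios within a library compare genes under the same depth. The log2 ratio of *Cd3e* to *Tcf7* counts was -3.77 ± 0.26 in GR+/+ and -2.57 ± 0.21 in GRdim/dim lungs (SD, n = 3 mice each), without overlap. The difference of 1.21 had an exact permutation p of 0.1, the smallest possible, and 0.333 after adjustment over the 5 ratios. This pair sets the member with the largest log2 fold change against that with the smallest, so its separation is a description. Set against *Ptprc*, which encodes the pan-leukocyte protein CD45, the log2 ratio of *Cd3e* was 0.50 higher in GRdim/dim lungs, with overlapping groups and an exact permutation p of 0.2 (adjusted 0.333). *Ptprc* itself was at 105, 112 and 63.6 CPM in GR+/+ and 206, 176 and 118 CPM in GRdim/dim lungs, without overlap, at a log2 fold change of 0.84 (SE 0.26, adjusted p of 0.332 in edgeR). Set against *Cd79a*, a signalling chain of the B cell receptor, the log2 ratio of *Cd3e* differed by 0.20, with an exact permutation p of 0.7 (adjusted 0.8).

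Per kilobase of gene length, which allows genes to be compared, *Tcf7* had the highest level over all 6 libraries, with a mean of 17.2 CPM per kilobase, followed by *Lck* at 3.70 and *Cd3d* at 2.38. *Cd8b1* (1.56), *Cd3e* (1.37), *Cd8a* (1.09), *Cd4* (1.05) and *Cd3g* (1.04) came next, then *Cd28* at 0.596 and *Themis* at 0.179 CPM per kilobase. *Tcf7* was above *Lck*, *Lck* above *Cd3d*, *Cd3g* above *Cd28* and *Cd28* above *Themis* in 6 of 6 libraries. The neighbours from *Cd3d* down to *Cd3g* changed places between libraries, each being above the next in 2 to 4 of 6, so their order was within the spread.

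**Figure D3:**
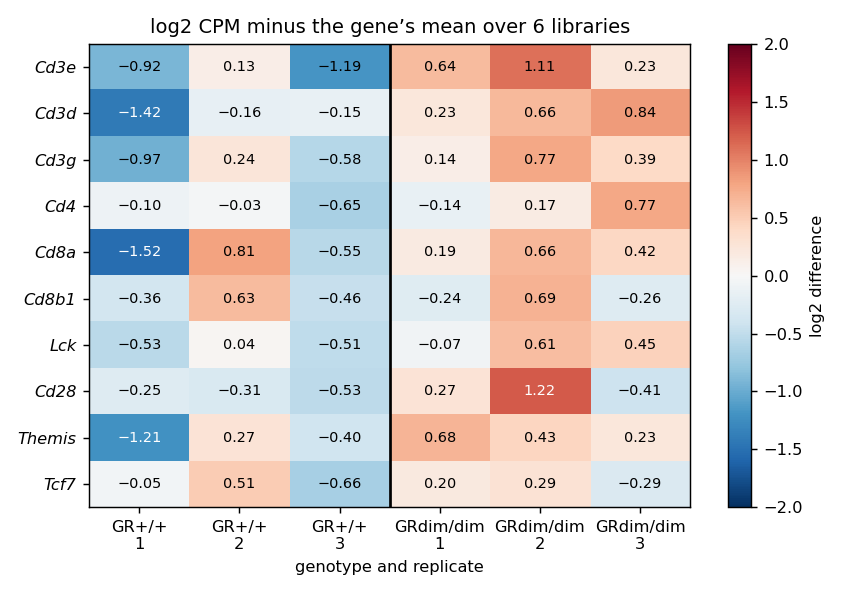
Log2 CPM of each gene in each library minus the mean of that gene over the 6 libraries (colour and number; red above, blue below), with GR+/+ libraries left and GRdim/dim libraries right of the line. GR+/+ replicates 1 and 3 are below the mean for every gene, GRdim/dim replicate 2 is above it for every gene and GR+/+ replicate 2 for most.

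The members varied together only in part from lung to lung, *Cd3g* and *Cd3e* most and *Cd4* and *Tcf7* least. GR+/+ replicate 1 had the lowest level for 5 members and GR+/+ replicate 3 for the other 5, while GRdim/dim replicate 2 had the highest level for 5. The median deviation of the 10 members from their means was -0.73, 0.18 and -0.54 on the log2 scale in GR+/+ and 0.19, 0.66 and 0.31 in GRdim/dim lungs. GR+/+ replicate 2 thus stood near the GRdim/dim lungs for these genes. Without it the median log2 fold change of the members was 1.10 and 6 members had an unadjusted p under 0.05 in edgeR, whereas without GR+/+ replicate 1 only 1 did, *Cd3e*. *Cd3e* had an unadjusted p under 0.05 whichever library was left out, and *Cd3d* in 4 of the 6 fits that left out a library. Shares of all genes under that p were not computed for these fits.

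As a description over 6 libraries that share depth and genotype, the correlation of each member with the mean of the other 9 was highest for *Cd3g* (r = 0.988), *Cd3e* (0.940), *Lck* (0.921), *Cd8a* (0.883) and *Themis* (0.851). It was 0.756 for *Cd3d* and 0.680 for *Cd8b1*, and lowest for *Cd28* (0.591), *Tcf7* (0.540) and *Cd4* (0.506). Of the 16558 other tested genes, 185 (1.12%) had r of at least 0.9 with the members' mean. Among the most alike were *Samd3* (0.997), *Pou2af1* (0.994), *Fcrla* (0.993) and *Lat* (0.990), the last encoding the adaptor that ZAP-70 phosphorylates. *Pou2af1*, a transcriptional coactivator of B cells, and *Fcrla*, an Fc receptor-like protein of B cells, rank beside it.

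The constant regions of the T cell receptor chains themselves, which the 10 members leave out, were described next. Of 8 such genes 7 could be tested (*Tcrg-C3* had 0 counts in every library), and all 7 had estimates above 0, with a median log2 fold change of 1.14. None was called by edgeR, 6 of 7 were higher at an unadjusted p under 0.05 and 5 did not overlap between genotypes. Over all tested genes, 4.91% were higher and 4.68% lower at that p, 50.9% had estimates above 0 and 7.77% were higher without overlap. The same shares stand beside the counts of the lists that follow. *Trac*, the alpha chain constant region, was at 3.47, 5.82 and 2.29 CPM in GR+/+ and 9.0, 7.98 and 11.8 CPM in GRdim/dim lungs. Its log2 fold change was 1.32 (SE 0.36) with an adjusted p of 0.265 in edgeR and 0.0259 in DESeq2, where it alone of this list passed the thresholds. The beta chain regions *Trbc1* and *Trbc2* had log2 fold changes of 1.06 (SE 0.32) and 0.73 (SE 0.32), and *Trdc*, of the delta chain, had 1.44 (SE 0.49). *Tcrg-C1*, of the gamma chain, the fifth gene without overlap, had 1.14 (SE 0.45). Together the constant regions gave 12.4 to 27.0 CPM in GR+/+ and 32.6 to 42.0 CPM in GRdim/dim lungs.

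Of 27 further genes of receptor signalling, 0 were called, 6 were higher and 0 lower at an unadjusted p under 0.05 in edgeR, and 22 had estimates above 0 (median log2 fold change 0.56). The Tec family kinase *Txk*, which acts beside *Lck*, had 1.24 (SE 0.36), and the phosphatase *Ptpn22*, which restrains receptor signalling, 0.92 (SE 0.33). *Fyn*, the kinase most like *Lck*, had 0.56 (SE 0.23). *Plcg1* and *Nfatc1*, an effector phospholipase and a transcription factor used in many cell types and among the most abundant of this list, had 0.06 (SE 0.23) and -0.07 (SE 0.22). *Cd247*, the zeta chain, was at 4.70 ± 1.0 CPM in GR+/+ and 5.25 ± 0.121 CPM in GRdim/dim lungs (SD, n = 3 mice each), a log2 fold change of 0.16 (SE 0.28). *Cd247* was chosen for mention after its value was seen, since it completes the CD3 complex.

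Among 13 tested of 14 costimulatory and checkpoint receptors, 5 were higher and 0 lower at an unadjusted p under 0.05, with 11 of the 13 estimates above 0 and a median log2 fold change of 0.55. *Il2rb*, a chain of the interleukin-2 receptor, had 1.10 (SE 0.27, DESeq2 adjusted p of 0.0152) and *Ctla4*, the inhibitory counterpart of CD28, had 1.72 (SE 0.45, DESeq2 adjusted p of 0.0480). Both missed the edgeR threshold, at adjusted p of 0.216 and 0.244. The costimulator *Icos* had 1.01 (SE 0.36), *Cd69*, an early activation marker, 1.22 (SE 0.43), and *Il2ra*, another interleukin-2 receptor chain, 0.96 (SE 0.40). *Btla* and *Havcr2*, among the most abundant of this list, had 0.45 and 0.41. *Cd27* and *Tnfrsf9*, both costimulators of the TNF receptor family, were the 2 genes with estimates below 0, at -0.26 and -0.15.

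The 16 homing and survival genes all had estimates above 0 (median 0.52), with 4 higher at an unadjusted p under 0.05. *Ccr7*, the receptor that leads naive T cells to lymph nodes, had 1.03 (SE 0.28, adjusted p of 0.253 in edgeR and 0.0331 in DESeq2). *Klf2* (1.19, SE 0.47), *Il2rg* (0.97, SE 0.28) and *S1pr1* (0.44, SE 0.23) were also named by the rule for genes. *Klf2* and *S1pr1* belong to the program of circulating T cells but are also found in endothelium.

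The 16 transcription factors of the T lineage did not share a direction: 2 were higher and 2 lower at an unadjusted p under 0.05, and the median log2 fold change was 0.47. *Gata3*, the factor of type 2 helper T cells, type 2 innate lymphoid cells and some epithelia, was at 21.4, 22.2 and 13.1 CPM in GR+/+ and 8.30, 8.14 and 8.72 CPM in GRdim/dim lungs. All GRdim/dim lungs were below all GR+/+ lungs. The log2 fold change of *Gata3* was -1.17 (SE 0.25), with an adjusted p of 0.144 in edgeR and 0.00310 in DESeq2. *Satb1*, a chromatin organiser of T cells, had 1.02 (SE 0.26, adjusted p of 0.224 in edgeR and 0.0234 in DESeq2) and *Runx3*, a factor of cytotoxic T cells, 1.01 (SE 0.37). *Zbtb7b*, the factor of the CD4 lineage, was the other gene that was lower, at -0.51 (SE 0.22), with overlapping groups. It averaged 81.8 CPM in GR+/+ lungs, where *Cd4* averaged 3.42 CPM, and which cells it came from was not measured. The most abundant of this list, *Id3*, *Ets1* and *Runx1*, had -0.05, 0.03 and -0.17.

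**Figure D4:**
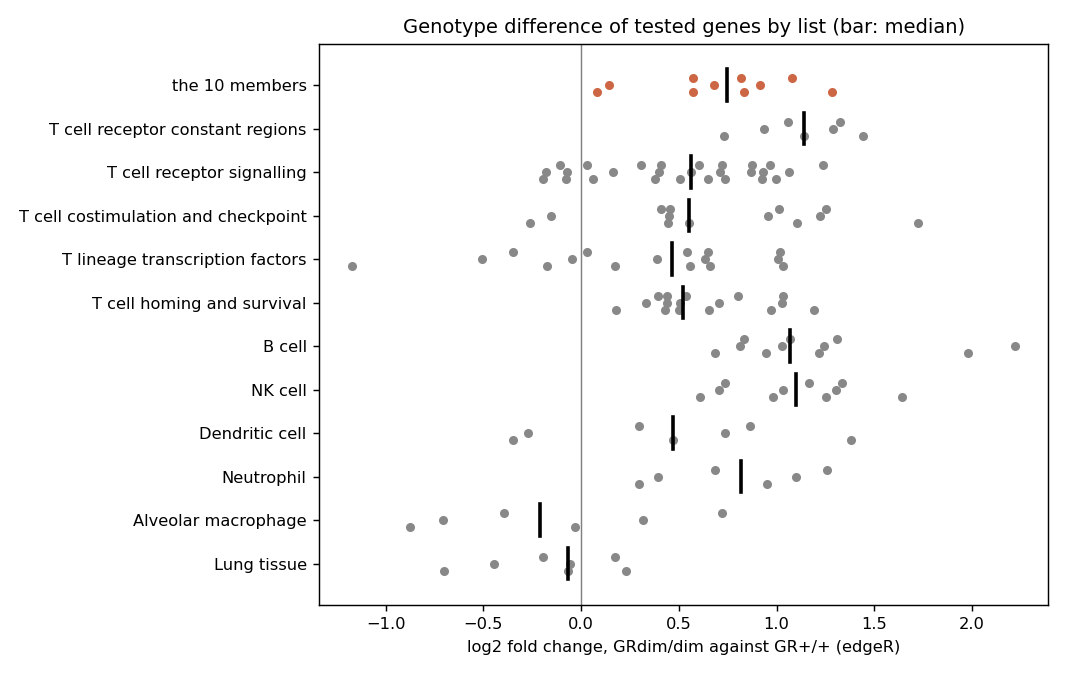
Log2 fold change (edgeR, GRdim/dim against GR+/+ lungs) of each tested gene, 1 row per gene list, with the members in red, other lists in grey and the median as a bar. The medians of the members (0.75), the receptor constant regions (1.14), B cell (1.07) and NK cell markers (1.10) lie right of 0, and those of the alveolar macrophage (-0.21) and lung tissue (-0.07) lists lie left of it.

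Markers of other cell types were measured beside the T cell genes. None passed the thresholds in edgeR, the lists differed in direction, and their part in the differences of the T cell genes was not tested. Of 11 B cell markers, 9 were higher at an unadjusted p under 0.05 in edgeR and 11 had estimates above 0 (median log2 fold change 1.07), and their summed level was 101 to 206 CPM in GR+/+ and 243 to 773 CPM in GRdim/dim lungs. The immunoglobulin genes led this list, with *Ighm* at 2.22 (SE 0.58), *Igkc* at 1.98 (SE 0.44, DESeq2 adjusted p of 7.28e-05) and *Ighd* at 1.22 (SE 0.38). Of 10 NK cell markers, 5 were higher and all 10 had estimates above 0 (median 1.10), with summed levels of 10.8 to 28.7 and 32.4 to 53.6 CPM. *Klrd1* (1.17, SE 0.36), *Klre1* (1.64, SE 0.52) *Klrb1c* (1.34, SE 0.57) and the protease gene *Gzma* (0.98, SE 0.37) were among them, and *Nkg7*, which cytotoxic T cells also express, had 1.30 (SE 0.51).

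Neutrophil markers had a median log2 fold change of 0.82 over 6 tested genes, 2 of them higher at an unadjusted p under 0.05, and a summed level of 249 to 484 CPM in GR+/+ and 343 to 1098 CPM in GRdim/dim lungs. *Retnlg* had 1.10 (SE 0.29, DESeq2 adjusted p of 0.0284), *S100a9* 0.95 (SE 0.38), *S100a8* 1.26 (SE 0.57) and *Csf3r* 0.29 (SE 0.38). The *S100a8* level was 397, 69.0 and 132 CPM in GRdim/dim lungs, against 71.3 to 103 CPM in GR+/+ lungs, so the groups overlapped and GRdim/dim replicate 1 stood out. Dendritic cell markers had a median of 0.47 over 7 genes, 3 of them higher (*Siglech* 1.38, *Cd209a* 0.86, *Itgax* 0.47), while *Clec9a* and *Zbtb46* had -0.35 and -0.27. Their summed levels overlapped, at 101 to 144 CPM in GR+/+ and 110 to 154 CPM in GRdim/dim lungs.

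Alveolar macrophage markers had a median of -0.21 over 6 genes, with summed levels of 493 to 576 CPM in GR+/+ and 483 to 587 CPM in GRdim/dim lungs. Within this list *Chil3* was lower (-0.88, SE 0.21, DESeq2 adjusted p of 0.0172), *Car4*, which lung capillary cells also express, was at 0.72 (SE 0.25), and *Marco* and *Mrc1* were at -0.70 and -0.03. Of the type 2 innate lymphoid markers 4 of 6 could be tested, with 1 lower at an unadjusted p under 0.05 (*Gata3*, which both lists hold), *Calca* at 0.67 and *Il1rl1* at 0.44, a median of 0.03, and summed levels of 25.1 to 38.2 and 19.8 to 28.9 CPM.

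Lung tissue markers had a median of -0.07 over 7 genes, with 0 higher and 1 lower (*Foxj1*, -0.70), *Pecam1* at -0.44, *Scgb1a1* at 0.23, *Sftpc* at 0.17 and *Sftpb* at -0.06, and their sums overlapped between genotypes. The summed level of the red cell markers, which follow the blood left in the tissue, overlapped as well, at 1110 to 4141 CPM in GR+/+ and 1728 to 4336 CPM in GRdim/dim lungs, with a median of 0.35 over 5 genes, *Hbb-bs* at 0.10, *Hba-a1* at 0.70, *Hba-a2* at 0.76 and *Alas2* at 0.35. Of these genes *Hba-a2*, an alpha globin, was higher at an unadjusted p under 0.05 and did not overlap, at 98.9 to 206 CPM in GR+/+ and 248 to 341 CPM in GRdim/dim lungs. For replicates 1 to 3 in order, the red cell sum was 2133, 1110 and 4141 CPM in GR+/+ and 1728, 4336 and 3390 CPM in GRdim/dim lungs. The part of blood in the result was not tested.

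Markers of immature T cells of the thymus were at or near 0. *Ptcra*, the pre-T cell receptor alpha chain, had 0 counts in all 6 libraries, *Rag2* 0 to 1, *Rag1* 1 to 5 and *Dntt* 0 to 10, and none of these 4 genes could be tested.

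Within sex, as read from *Xist* and Y-linked expression, 6 members were higher in every GRdim/dim library than in every GR+/+ library of the same sex in both sexes (*Cd3e*, *Cd3d*, *Cd3g*, *Cd8b1*, *Lck* and *Themis*), against 14.6% of all tested genes. Among the female libraries, 2 GR+/+ and 1 GRdim/dim, this held for 8 members and 33.3% of all genes, and among the male libraries, 1 GR+/+ and 2 GRdim/dim, for 7 members and 29.3% of all genes. With so few libraries of each sex these counts are descriptions. With a covariate for sex in the edgeR fit, 0 members were called, 5 had an unadjusted p under 0.05 (*Cd3e*, *Cd3d*, *Cd3g*, *Lck* and *Cd28*), and the median log2 fold change of the 10 was 1.04. The share of all genes under that p in this fit was not computed.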

How the data were processed

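RNA from lung tissue of 3 GR+/+ and 3 GRdim/dim mice was sequenced by a commercial provider as poly(A)-captured libraries, 1 per mouse. The values are raw read counts of each gene, as the authors deposited them for the 6 libraries, neither normalized nor pooled. The submitters' processing notes name mm10 and DESeq2. The aligner, the counting tool, the annotation and the use of strand are not given in the sources used here. Genotype and replicate number were taken from the sample labels. The deposited table also gives gene lengths, used for levels per kilobase only. Coordinates were the same in the GENCODE M21 annotation of GRCm38 for all 10 members, and promoter windows were taken from RefSeq (GRCm38.p6).

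Differential expression was computed over all 16568 genes that passed filterByExpr, using edgeR 4.0.16 under R 4.3.3 (robust glmQLFit and glmQLFTest after TMM scaling) and Benjamini-Hochberg adjustment. A differentially expressed gene had an adjusted p under 0.05 and a log2 fold change beyond 0.5. DESeq2 1.42.0 was run on the same genes as an alternative. TMM factors scaled the CPM values, and log2 CPM had 2 counts added as a prior. Ratios used counts plus 0.5. Permutation tests were exact and two-sided over the 10 ways to split the 6 libraries into 2 groups of 3. The edgeR fit was tested on simulated counts, and the DESeq2 fit was not. Total counts were 15687734 to 32082940, and chi-square tests between replicates of a genotype gave 21.1 to 74.1 per gene, where sampling noise gives 1, so all libraries were used as separate replicates.

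The members and the gene lists were chosen with earlier results of these data known, so counts over them are descriptions. By rule, the text names the members, the 3 most abundant genes and the 3 genes with the smallest p of each list, the 5 genes most like the members, *Ptprc* and the genes of the ratios. *Cd247*, *Cd27*, *Cd69*, *Il2ra*, *Klrb1c*, *Tcrg-C1*, *Tnfrsf9*, *Zbtb7b* and the thymocyte markers were named after their values were seen. Some genes that the rule names are not reported here. Alternatives were another scaling (RLE), no filter or at least 10 counts in every library, DESeq2, a replicate block, a covariate for sex-linked expression, and leaving out each library.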

Additional observations from a re-analysis of the deposited data

How the results depend on the processing

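With no filter on low counts 522 of 31368 tested genes were called, in place of 28 of 16568. Of these 522 genes 1 was a member (*Cd3e*, log2 fold change 1.28), and 5 members had an unadjusted p under 0.05 in place of 3. DESeq2 called 272 of 15917 genes and gave 5 such members, and the covariate for sex-linked expression also gave 5. Leaving out 1 library at a time gave 4 to 22 called genes of 16843 to 17148 tested, fewest without GR+/+ replicate 2. Among the called genes were 0 members each time. The number of members with an unadjusted p under 0.05 was then 1 to 6, and the median log2 fold change of the members 0.58 to 1.10. The share of all genes under that p was not computed for any alternative edgeR fit, so these member counts have no background. The direction of *Cd8b1* (-0.27 to 0.59) and *Tcf7* (-0.17 to 0.42) reversed in part of these fits, and the cause was not tested. The other 8 members had estimates above 0 in every fit run.

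The correlations between same-numbered libraries of the 2 genotypes were 0.22, 0.04 and -0.05, and those between differently numbered libraries -0.27 to 0.19. With 3 libraries per genotype, these values cannot decide whether the replicate numbers pair the libraries, and the main fit had no pairing. A replicate block gave 34 called genes, 0 called members, 4 members with an unadjusted p under 0.05 and a median log2 fold change of 0.79.

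The group size of 3 limits the exact test of single genes to p = 0.1 or above. Among the members, *Themis* had the lowest count in a library, 13.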
